A study of Mus musculus with 2 samples.

Results

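Dense runs of neighbouring narrow differentially methylated regions were examined in a comparison of PDGFRα+ and CD137+ mouse adipose progenitors. The authors' list gave 34139 regions, of which 32708 lay on chromosomes 1 to 19 and were narrower than 500 bp. These were ordered by position and chained where the gap to the next one was under 5 kb, and chains of 5 or more were kept as runs. This gave 78 runs with 495 member regions, or 1.51% of the narrow autosomal regions (95% Wilson interval 1.39 to 1.65). The members were thus chosen by where the called regions lie and how wide they are, and neither the sign nor the size of the score was used.

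The list compares 1 bisulfite sequencing library of PDGFRα+ cells with 1 library of CD137+ cells. Both came from C57BL/6 mouse adipose tissue, and both were exposed to DEX (dexamethasone, a synthetic glucocorticoid), so every difference described is one between DEX-treated cells. Cells were taken from subcutaneous or visceral fat by magnetic sorting on the antigen, grown, and then placed in an adipogenic cocktail, per the labels' protocols. The depot of either library and the number of animals pooled are not given. Only DNA was sequenced, so the labelled cell types could not be checked against expressed markers. PDGFRα (CD140a) is a receptor tyrosine kinase that marks adipose progenitors broadly, and CD137 is a TNF receptor family member linked to beige precursors.

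Each region carries 1 value, the authors' signed score, which is neither a methylation level nor a percent difference. Which library a negative score stands for is nowhere defined. Were the subtraction in the order of the list's title, PDGFRα+ first and CD137+ second, negative regions would be those less methylated in PDGFRα+ cells. The depth behind each region is unknown. With 1 library per group no difference has a replicate check, so no p-value was computed and all values describe these 2 libraries. Intervals on shares are 95% Wilson intervals and cover the counting of regions, which are not independent of each other.

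Methylation of cytosine in CG dinucleotides is copied at cell division and therefore keeps a record of a cell's lineage. Genes for developmental transcription factors usually sit in broad stretches of unmethylated DNA several kb long, whose edges gain or lose methylation between cell types and body positions. A caller that joins neighbouring CG sites can report a changed stretch either as a single wide region or as a string of short ones.

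In 4 genes a member overlapped the promoter window that a RefSeq table holds, the 250 bases before an annotated start, and these windows are shown because they place the differences on the sequence. Coordinates are of GRCm38.p6, the assembly that mm10 names, sequences are from RefSeq and run 5′ to 3′ on the strand of the gene, and capitals mark the bases inside a member region. The Mest window (chr6:30737800-30738049, plus strand) belongs to an imprinted gene. The windows of Hoxb8 (chr11:96281655-96281904, plus strand), Hoxa10 (chr6:52240855-52241104, minus strand) and Hoxa2 (chr6:52164832-52165081, minus strand) belong to genes that encode position along the body axis.
Mest: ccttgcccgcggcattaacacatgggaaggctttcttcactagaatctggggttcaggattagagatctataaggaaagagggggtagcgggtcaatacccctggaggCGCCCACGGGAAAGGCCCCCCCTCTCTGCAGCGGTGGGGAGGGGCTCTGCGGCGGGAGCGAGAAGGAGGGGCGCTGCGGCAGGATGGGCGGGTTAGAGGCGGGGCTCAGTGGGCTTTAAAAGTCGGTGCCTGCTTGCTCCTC
Hoxb8: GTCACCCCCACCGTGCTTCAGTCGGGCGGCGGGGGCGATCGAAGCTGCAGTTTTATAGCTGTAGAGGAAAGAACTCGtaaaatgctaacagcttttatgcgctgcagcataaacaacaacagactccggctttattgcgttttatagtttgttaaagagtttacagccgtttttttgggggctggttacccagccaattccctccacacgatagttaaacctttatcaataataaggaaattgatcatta
Hoxa10: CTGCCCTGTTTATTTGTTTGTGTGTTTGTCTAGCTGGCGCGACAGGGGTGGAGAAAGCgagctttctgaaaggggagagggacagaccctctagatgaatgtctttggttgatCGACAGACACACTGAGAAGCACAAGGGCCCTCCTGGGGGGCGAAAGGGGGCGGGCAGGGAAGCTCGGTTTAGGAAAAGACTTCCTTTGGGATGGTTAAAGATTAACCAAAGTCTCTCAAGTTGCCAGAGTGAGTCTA
Hoxa2: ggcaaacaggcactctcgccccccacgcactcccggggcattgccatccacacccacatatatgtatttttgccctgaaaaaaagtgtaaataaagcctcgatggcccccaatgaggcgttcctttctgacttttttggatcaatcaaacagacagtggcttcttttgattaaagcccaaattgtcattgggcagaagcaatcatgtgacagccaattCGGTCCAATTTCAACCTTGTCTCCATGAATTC
The Mest window held 14 CG dinucleotides, 11 of them inside the member, which scored -244. The Hoxb8 window held 12, of which 7 lay inside a member that scored -169. In the Hoxa10 window 6 of 7 lay inside 2 members with scores of -98.7 and -59.4. In the Hoxa2 window 1 of 6 lay inside a member with a score of 51.0. The median over the 16457 protein-coding genes in the table was 10 CG dinucleotides (quartiles 3 and 19).

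A pair of microRNA genes also lay in runs, Mir196a-1 in the HoxB cluster and Mir196a-2 in the HoxC cluster. Both give the same mature miR-196a-5p, which is known to act on HOX transcripts, and their other arms differ in seed. The sequences are shown with the seed (bases 2 to 8) in capitals, because both loci encode 1 product and lay in runs of opposite sign.
mmu-miR-196a-5p: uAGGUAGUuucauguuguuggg
mmu-miR-196a-1-3p: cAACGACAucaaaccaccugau
mmu-miR-196a-2-3p: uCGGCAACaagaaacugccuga
The Mir196a-1 hairpin (chr11:96265164-96265265) began inside the last region of its run, which scored -41.6 and covered the first 7 bases of the hairpin. The Mir196a-2 hairpin (chr15:102973350-102973434) lay 83 bp from the nearest region of its run, which scored 38.8.

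The runs were short and sparsely filled. A run spanned 9.05 kb at the median (quartiles 6.52 and 11.3, range 2.13 to 19.2), and the 78 runs together spanned 704 kb, of which the members covered 87.0 kb or 12.4%. Of the 78 runs 38 held 5 regions, 18 held 6, 8 held 7, 3 held 8, 2 held 9, 4 held 10, 1 held 11 and 4 held 12. Just outside the rule stood 139 chains of 4 regions. The widest gap inside a run was 4996 bp, in Meox2, and the smallest that ended a run was 5184 bp. The widest member was 495 bp, at Twist1, and the narrowest region that the width limit left out was 500 bp. Every autosome held at least 1 run. Chromosome 6 held 9 runs with 61 members, chromosome 8 held 7 with 47, chromosome 7 held 7 with 43 and chromosome 15 held 6 with 47. Members made up 3.22%, 2.31%, 2.72% and 3.23% of the narrow regions of these chromosomes. Chromosomes 10, 14, 16 and 19 held 1 run each, with shares of 0.259% to 0.672%.

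**Figure D1:**
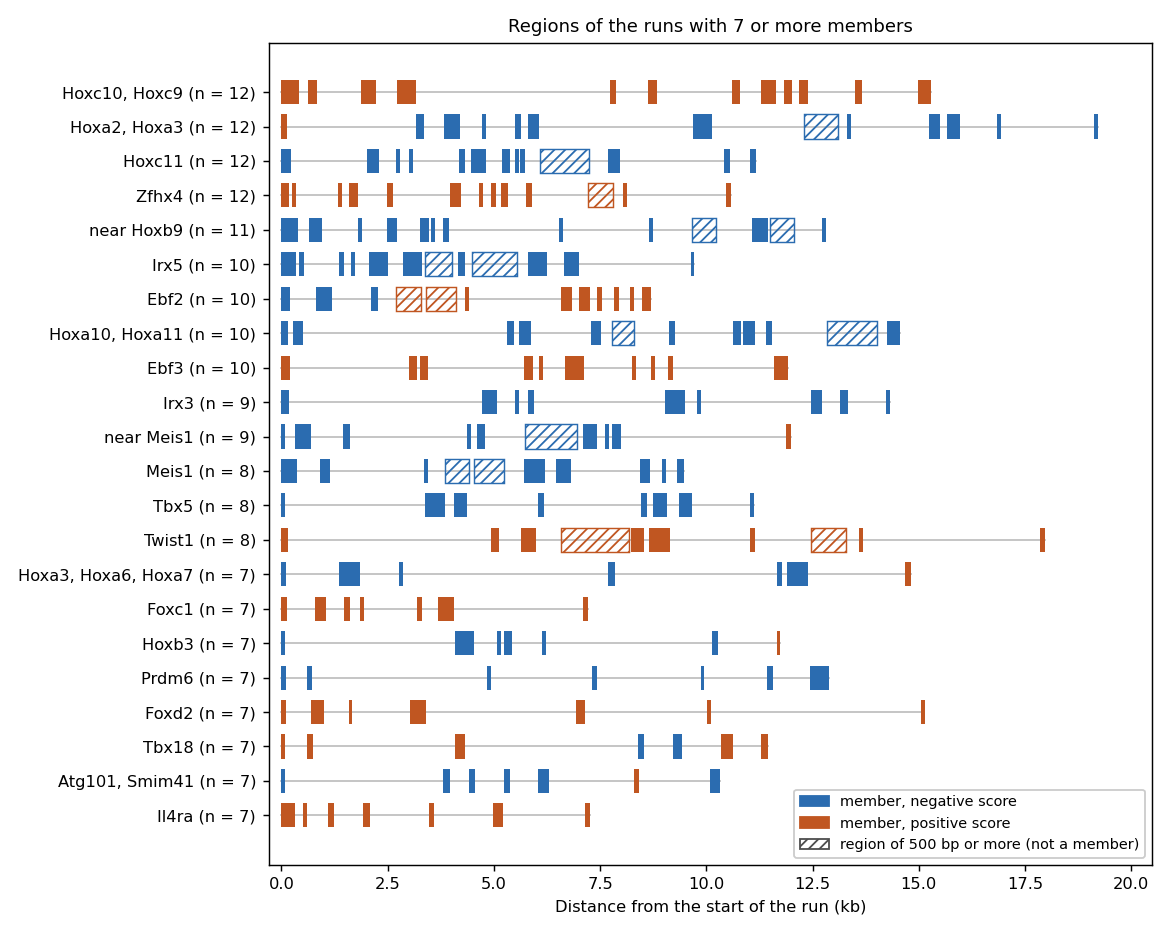
Map of the 22 runs with 7 or more members, each on its own line, with the distance from the start of the run in kb on the horizontal axis. Solid bars are member regions, blue for a negative and orange for a positive score, hatched bars are regions of 500 bp or more that lie inside the run and are not members, and n is the number of members. Most lines hold 1 colour, and the Ebf2 run changes from 3 negative to 7 positive members.

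Member regions were wider than the other narrow regions, and their scores were larger. The median width was 142 bp (quartiles 89 and 235) in runs, against 109 bp (79 and 175) for the 32213 narrow autosomal regions outside runs. The median absolute score was 64.8 (41.6 and 110) in runs and 48.8 (32.9 and 75.0) outside, and 28.3% of members (24.5 to 32.4) had an absolute score of 100 or more, against 13.8% (13.5 to 14.2) outside. Scores grow with width, so the classes of width were compared on their own. Under 80 bp the medians were 33.3 in runs and 31.8 outside. From 120 to under 200 bp they were 73.6 and 63.1, and from 300 to under 500 bp they were 161 (73 regions) in runs and 116 (2460 regions) outside. The median was the higher one in runs in each of the 5 width classes.

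**Figure D2:**
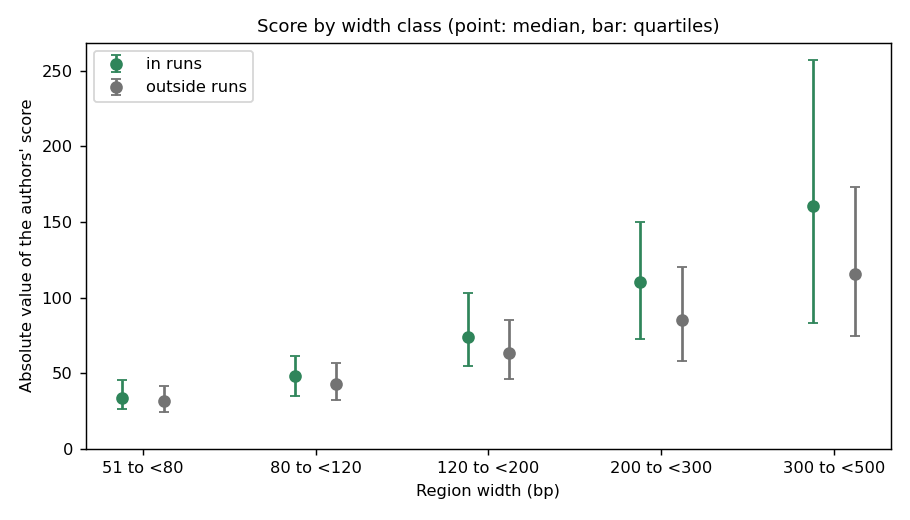
Absolute value of the authors' score by width class in bp, for member regions (green, left of each pair) and narrow autosomal regions outside runs (grey). Points are medians and bars run from the lower to the upper quartile; the quartile ranges overlap in every class, and the medians from 300 to under 500 bp are 161 and 116.

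Negative scores were less dominant in runs than elsewhere. Of the 495 members 279, or 56.4% (52.0 to 60.7), were negative, against 67.3% (66.8 to 67.8) outside runs and 67.1% over all narrow autosomal regions. Runs of 1 sign were about evenly split, with 23 runs negative throughout (157 regions) and 24 positive throughout (156 regions). The other 31 runs (182 regions) held both signs. By majority, 46 runs were negative and 31 positive, and the run in Sfmbt2 held 3 of each.

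Neighbours in a run mostly had the same sign. Of 417 neighbouring pairs 368, or 88.2% (84.8 to 91.0), agreed, against 77.0% of 4834 pairs with gaps under 5 kb outside runs. At gaps of 50 to under 500 bp agreement was nearly complete in both, at 97.1% (92.8 to 98.9) in runs and 98.1% (97.3 to 98.7) outside. At gaps of 2000 to under 5000 bp it was 80.3% (72.6 to 86.3) of 127 pairs in runs and 63.1% (60.9 to 65.2) of 1930 pairs outside, close to the 63.7% (61.9 to 65.5) of pairs 5 to 10 kb apart. The 49 pairs that changed sign in runs had a median gap of 2040 bp, against 860.5 bp for pairs that did not, and no change took place across less than 369 bp.

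**Figure D3:**
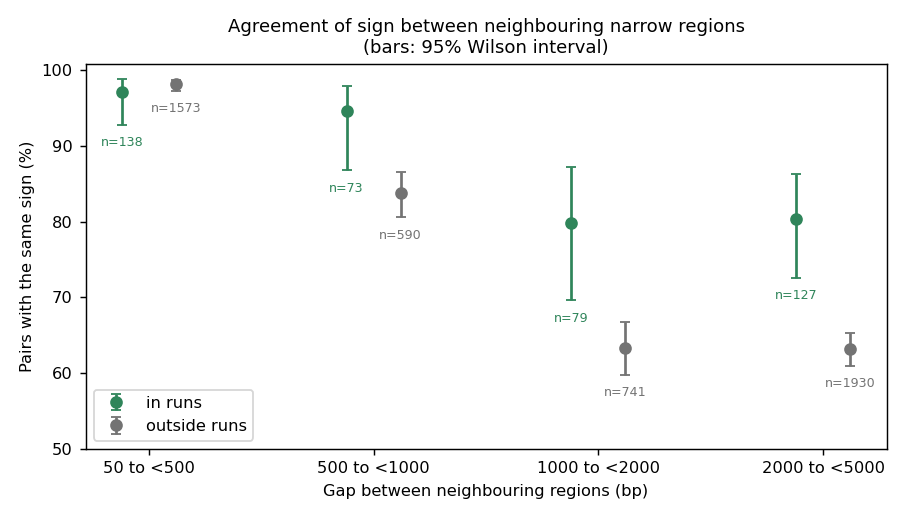
Share of neighbouring pairs of narrow regions with the same sign, in percent, by the gap between them in bp, for pairs in runs (green, left of each pair of points) and pairs outside runs (grey), with the number of pairs. Bars are 95% Wilson intervals, which cover the counting of pairs; the intervals overlap under 500 bp and do not overlap from 500 bp on.

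Over whole runs, 47 of 78, or 60.3% (49.2 to 70.4), held 1 sign. For shorter chains the share was 73.9% over 3993 chains of 2 to 4 regions, with 76.1% for chains of 2, 63.9% for chains of 3 and 60.4% for chains of 4. It was 44.7% (17 of 38) for runs of 5, 73.1% (19 of 26) for runs of 6 or 7 and 78.6% (11 of 14) for runs of 8 to 12. Of the 31 mixed runs 22 had a single region of the other sign, 15 changed sign once, 14 changed sign 2 times and 2 changed sign 3 times. The 39 regions that went against their run had a median absolute score of 50.5 and a median width of 117 bp, against 67.6 and 146 bp for the 450 that went with it. Of these 39, 16 were the first or last of their run (41.0%, 27.1 to 56.6), against 138 of the 450 (30.7%, 26.6 to 35.1), and the intervals overlap.

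Regions of 500 bp or more had been left out by the rule, and 21 of them lay inside 15 runs. In each of the 21 the sign was that of most members, over scores of -755 to 654. Set against the single nearest narrow region under 5 kb away, the sign agreed for 20 of 21 wide regions inside runs (95.2%, 77.3 to 99.2) and for 255 of 293 elsewhere (87.0%, 82.7 to 90.4). These intervals overlap.

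Runs lay at genes more often than the other narrow regions did. Of the 495 members 70.3% (66.1 to 74.2) lay in a protein-coding gene or within 2000 bp of its end, against 53.5% (52.9 to 54.0) outside runs. Gene ends (2000 bp outside to 500 bp inside either end) held 13.9% of members (11.2 to 17.3) and 4.34% of the regions outside runs (4.12 to 4.57). Members of a run share a locus and HOX genes lie close together, so these shares do not rest on 495 separate places. Of the 78 runs 63 overlapped a protein-coding gene, 11 of them more than 1, and 43 had 5 or more members inside 1 gene. A run held 1 sign in 42 of these 63 and in 5 of the 15 that overlapped none.

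The 72 protein-coding genes overlapped by a run were 0.348% of the 20665 on the autosomes. Against this, the 10 lists of developmental and adipogenic regulators had 33 of 201 genes overlapped, or 16.4% (11.9 to 22.2). The other 13 lists had 4 of 305, or 1.31% (0.511 to 3.32). The lists were chosen with earlier results of these data known, so the contrast describes these lists and is no independent support. It also depends on how they were drawn: Prdm16, with 2 runs in the gene, counts among the other lists. List genes that are noncoding or on the X chromosome are left out of the 201 and 305 but stay in the totals of single lists below. Without them the T-box list has 16 genes, the Hippo and TEAD list 31, the imprinted list 21 and the glucocorticoid receptor list 23. The lists were not matched to all genes in length or CG content, and genes of 1 cluster share runs. HOX genes had 13 of 39 overlapped and Iroquois genes 2 of 6. HOX cofactors had 2 of 9, adipogenesis regulators and mesenchymal fate factors 4 of 26 each, and T-box genes 2 of 17. Forkhead genes had 2 of 25, patterning homeobox genes 2 of 34, LIM homeobox genes 1 of 12 and Zfhx and Teashirt genes 1 of 8. Brown and beige fat genes (1 of 22), imprinted genes (1 of 28), Hippo and TEAD genes (1 of 33) and Wnt genes (1 of 40) had a single gene each. The remaining 9 lists with 202 entries had none. These were the glucocorticoid receptor and its response genes, TGF-beta and BMP genes, matrix genes, mature adipocyte genes, adipose progenitor markers, and the markers of blood, endothelial, mural and mesothelial cells.

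**Figure D4:**
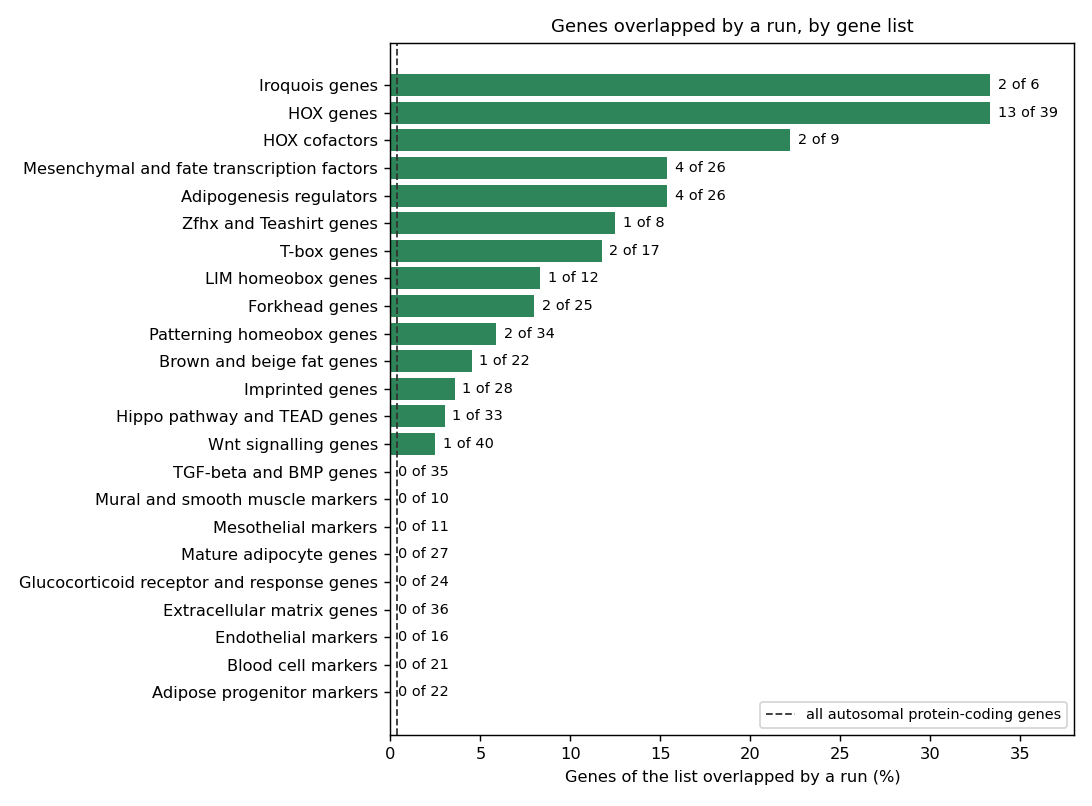
Share of the genes of each of 23 lists that a run overlaps, in percent, with the number of genes beside each bar; the dashed line is the share of all autosomal protein-coding genes, 0.348%. HOX and Iroquois genes reach 33.3%, and 9 lists stand at 0. The totals beside the bars include list genes that are noncoding or on the X chromosome, which the dashed line leaves out.

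The 28 runs at genes of the regulator lists held 216 members and 7 regions at the median, against 5 in the other 50 runs. Neighbouring members had the same sign in 94.7% of pairs (90.5 to 97.1) at the regulators and in 83.0% (77.6 to 87.3) in the other runs. Pairs of the same run are not separate counts. By run, 20 of 28 at the regulators held 1 sign (71.4%, 52.9 to 84.7). Of the others 27 of 50 did (54.0%, 40.4 to 67.0), and these intervals overlap. The runs at Prdm16 count among the others. The median absolute score of a member was 76.0 at the regulators and 58.0 in the others, with median widths of 166 and 129 bp. Of the 14 runs with 8 or more members 12 were at regulator genes, and the other 2 lay near Hoxb9 and Meis1.

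HOX genes held the most runs of any list. The HoxA cluster had 4 runs (chr6:52164732-52244730), separated by 6.01 to 7.86 kb, with 31 of 34 members negative and a median score of -70.1. The first run, over Hoxa2 and Hoxa3, held 12 regions. It opened with the positive region of 51.0 at the Hoxa2 promoter and went on with 11 negative regions, of which those of -477 and -342 had the largest scores. The run around Hoxa3 and Hoxa5 opened with a region of 132 before 4 negative ones of -26.5 to -121. The run over Hoxa6 and Hoxa7 held 6 negative regions, among them -492, -274 and -221, and closed with 1 of 87.4. The last run, at Hoxa10 and Hoxa11, was negative throughout, with 10 regions between -188 and -52.3. Thus the 3 positive regions of HoxA stood at the ends of their runs. The annotated Hoxa3 gene is 44009 bp long and spans its neighbours, so its 17 members cannot be assigned to Hoxa3 alone.

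The HoxB cluster had 3 runs over 99.2 kb (chr11:96252390-96351622), with 22 of 24 members negative and a median score of -68.7. The longest, of 11 regions all negative (-179 to -31.9), ended 6.16 kb from Hoxb9 and at the Mir196a-1 hairpin. The run over Hoxb9 and Hoxb8 had scores of -31.1, -75.2, -48.3, -169, -114 and 48.8. The run at Hoxb3 had 6 negative regions, the strongest of -407, and 1 of 57.8. In both of these the positive region was the last. The HoxD cluster had 0 runs, which leaves open whether single regions, shorter chains or wide regions lie there.

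In the HoxC cluster 2 adjacent runs had opposite signs. The run at Hoxc11 (chr15:102945258-102956422) also overlaps Hotair, a noncoding RNA gene. Its 12 members were all negative, with scores of -111, -101, -35.8, -23.5, -64.8, -189, -154, -33.2, -29.1, -29.6, -131 and -99.5 in order along the chromosome. The run at Hoxc10 and Hoxc9 (chr15:102965394-102980682), with Mir196a-2, had 12 members, all positive: 291, 61.8, 257, 103, 38.8, 59.8, 157, 220, 139, 195, 218 and 137. It had the highest summed absolute score of all runs, 1878. The 8.97 kb between them held 2 wide regions, both negative (-336 and -90.3). The change of sign thus fell between the negative wide regions and the first region of the Hoxc10 run.

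**Figure D5:**
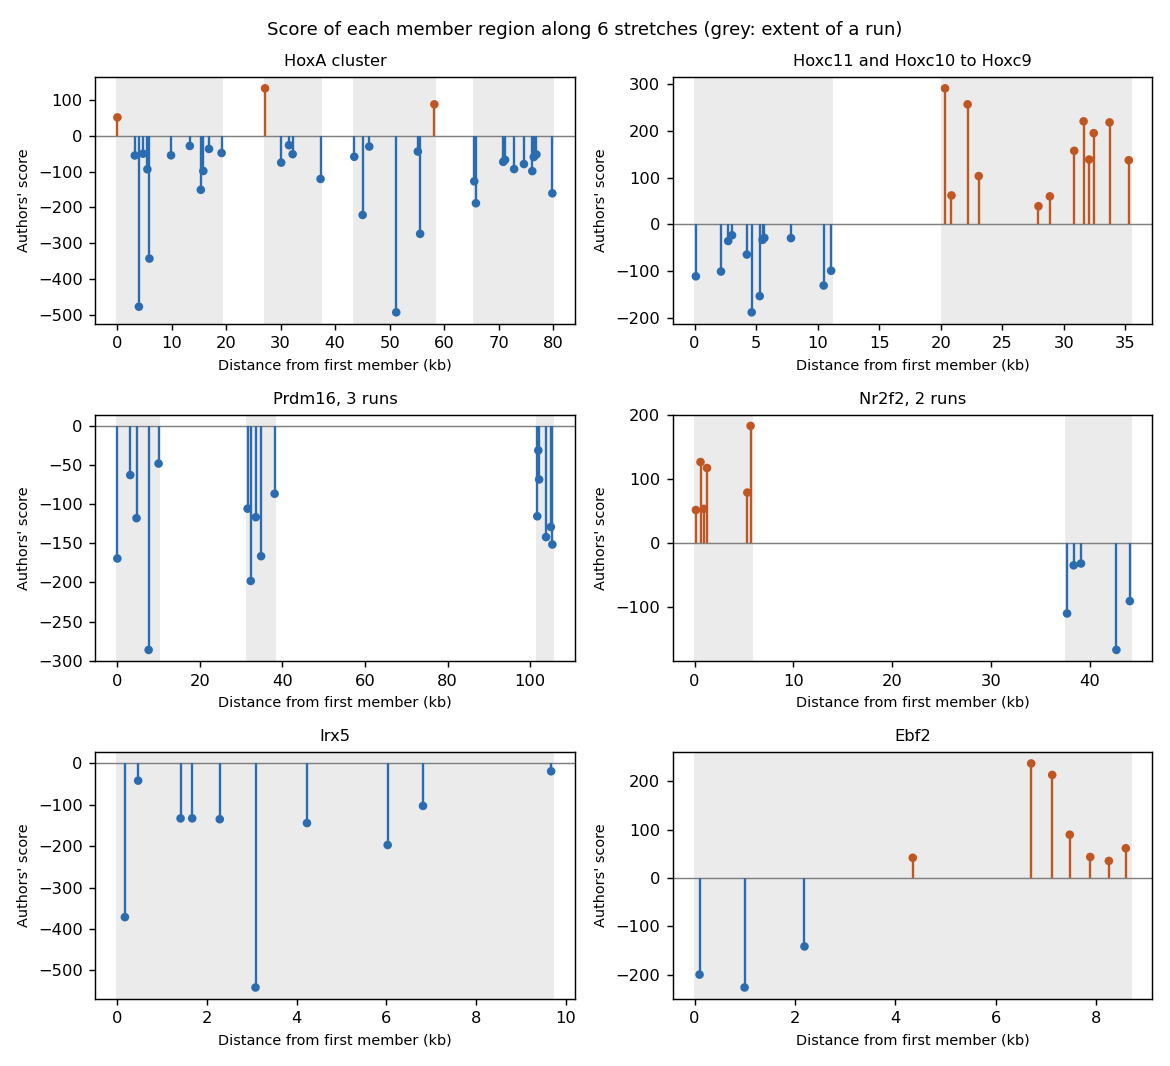
Authors' score of each member region (vertical axis) against its distance from the first member of the stretch in kb, for 6 stretches; grey shading marks the extent of a run, blue is negative and orange positive. The 3 positive members of HoxA stand at ends of runs, the 12 members at Hoxc11 are negative and the 12 at Hoxc10 to Hoxc9 positive, and the Nr2f2 runs have opposite signs.

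Meis1, a HOX cofactor that binds DNA together with HOX proteins, had 2 runs, mostly negative. It had a run of 8 negative regions inside the gene (-240 to -59.1), and a second run of 9, 8 of them negative, lay 121 kb from the gene among noncoding genes (-126 to 40.3). The Iroquois genes Irx3 and Irx5, homeodomain factors studied in adipocyte browning, had 19 members in 2 runs, all negative. Irx5 had 10, with scores of -371, -41.5, -133, -133, -135, -541, -144, -197, -103 and -18.9. The run had the second-highest summed absolute score, 1817. Irx3 had 9, between -273 and -23.7. Of these members 2 lay in Irx5 and 3 in Irx3, and the others beside the genes.

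The T-box, LIM and patterning homeobox lists held runs of both signs, and the runs at Hlx and Prdm6, which are in no list, and near En1, which its run does not overlap, were grouped here after their values were seen. Tbx5, which specifies the forelimb, had 8 negative regions (-291 to -32.4), all overlapping the gene. Lmx1b, a LIM homeobox gene of dorsal limb fate, had 6 negative regions with scores of -203, -162, -235, -24.9, -48.7 and -65.6. En1, which acts in the ventral limb, had 5 negative regions that began 1.16 kb from the gene (-187 to -28.5). Hlx, a homeobox gene of visceral mesenchyme, had 6 negative regions packed into 3.67 kb (-265 to -68.9). Prdm6, a regulator in smooth muscle, had 7, of which the strongest scored -430. The paired-type homeobox gene Alx4 went the other way with 84.9, 42.8, 345, 112 and 177, as did Meox2 with 6 weaker positive regions (87.3, and then 26.6 to 21.1). Tbx18, a T-box gene of epicardial and mural progenitors, had 3 positive regions, then 2 negative (-52.3 and -57.3), then 2 positive (233 and 115).

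Of the 4 mesenchymal fate factors with a run, Twist1 and Osr2 had positive regions throughout, Scx lay in a mainly negative run, and Nr2f2 was overlapped by a negative one. Twist1, a helix-loop-helix factor of mesenchyme, had 8 positive regions over 17979 bp (35.8 to 150.0). None of them lay inside the 2161 bp gene, which the run encloses. Osr2 had 6 positive regions (177, 134, 123, 254, 120 and 49.1). Both forkhead genes with a run were positive throughout. Foxc1 had 7 with scores of 173, 149, 51.7, 53.3, 74.8, 264 and 94.9, and Foxd2 had 7 over 15.1 kb, the strongest of 238, 186 and 130. The zinc-finger homeobox gene Zfhx4 had 12 positive regions over 10.6 kb (22.7 to 133), 2 of them in the gene and the others before its start coordinate. The run at Scx, a tendon factor gene that lies inside Bop1, opened with the member with the largest absolute score, -582, followed by -77.6 and 44.1. These 3 overlap both genes, and the last 2 members, of -95.7 and -47.9, lie in Bop1 alone.

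Nr2f2, which encodes the nuclear receptor COUP-TFII, had 2 runs of opposite sign. The run that overlapped the gene had scores of -110, -34.6, -31.8, -167 and -90.6. The other lay 21.0 kb from the gene, with 6 positive regions of 51.9, 127, 53.7, 118, 79.1 and 183. The 31.7 kb between the runs held 8 regions, all negative, the strongest a wide one of -1160. Of 9 pairs of runs less than 100 kb apart, 7 had the same main sign, and the exceptions were these runs and those at Hoxc11 and Hoxc10.

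Of the 26 adipogenesis regulators 4 had a run, and the 28 members inside these genes were all positive. These are 4 places and not 28, and 3 negative members stood before Ebf2. Of all 495 members 56.4% were negative. Pparg, whose product drives fat cell differentiation, had 6 regions near its lower end coordinate, scoring 102, 44.4, 35.5, 54.0, 55.0 and 63.1. Gata2, whose product holds back adipogenesis, had 170, 24.1, 42.5, 237 and 39.2. Ebf3 had 10 regions over 11.9 kb (29.0 to 341). Ebf2, a regulator of brown and beige precursors, had a run of both signs. Its first 3 regions, before the gene, scored -200, -226 and -142, and the 7 inside the gene scored 41.7, 237, 213, 89.4, 43.3, 35.2 and 61.3. The 2040 bp between the third and the fourth held 2 wide positive regions (445 and 642). The sign thus changed around the lower end of Ebf2, and all regions of the run inside the gene were positive.

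Prdm16, a determinant of brown and beige identity, had 3 runs over 106 kb (chr4:154536506-154642062), and all 16 members were negative with a median score of -117. The 2 runs inside the gene had scores of -169, -62.8, -118, -286 and -48.2, and of -106, -198, -117, -167 and -86.7. The third began 0.749 kb beyond its upper end, over Prdm16os, with -116, -31.3, -68.5, -142, -129 and -152.

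The genes the study is framed around had no run, which holds for nearly all genes. A run overlapped 72 of the 20665 autosomal protein-coding genes (0.348%). Tead1, a DNA-binding partner of YAP and TAZ, had 6 narrow regions inside the gene, but no more than 2 of them in 1 chain, and the nearest run lay 12.6 Mb away. Pdgfra had 2 narrow regions, each alone, and Nr3c1, the glucocorticoid receptor gene, had 1. Tnfrsf9, which encodes CD137, had 0. In the Hippo list the kinase gene Taok3 had a run, with 5 negative regions in 2.46 kb (-27.3, -33.1, -121, -217 and -47.7).

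Other runs of 1 sign lay outside the regulator lists. Positive throughout were the interleukin receptor gene Il4ra (7 regions, 31.8 to 97.2), the Wnt receptor gene Fzd4 with the end of Tmem135 (5, 21.0 to 72.8), and the chemokine scavenger gene Ackr3 (5, 19.6 to 139). So were Fstl1 (5, 22.9 to 110), the focal adhesion gene Pxn (5, 22.3 to 166), the gene Dlc1 (6, 23.1 to 157) and Snx18 (6, the strongest of 72.4). Bckdhb, of branched-chain amino acid breakdown, had 6 (26.5 to 248), Tmem140 with Cyren had 6 (19.7 to 119), Gse1 had 5 (30.3 to 399), and the ETS factor gene Ets1 had 5 (21.6 to 59.2). The densest run of all was in Pola2, a DNA polymerase alpha subunit gene, with 5 positive regions in 2.13 kb (34.5 to 104), or 2.35 per kb.

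Negative throughout were Nkd1, an antagonist of Wnt signalling (6 regions, -121 to -22.4), the cytochrome P450 gene Cyp1b1 (6, -125 to -33.0) and Zfp385b (6, -77.9 to -47.7). Ppil1 had 6, of which the strongest scored -403. The run over Jak3 and Insl3 had 5 of nearly equal score (-90.3 to -61.3), beside a wide region of -644. A run 691 kb from Mctp2, the nearest protein-coding gene, was also negative throughout (-175 to -27.2).

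Mixed runs outside the regulator lists were mostly of 5 or 6 regions with 1 exception among them. A single positive region stood among negative ones in Rbpms, Adam33, Ezr, Mtcl1, Tenm4, Col6a5 and the 7-region run at Atg101 and Smim41, where it scored 69.5. Tcf4 had 1 negative region (-26.8) among 4 positive. Mest, the imprinted gene, had scores of -28.9, -80.6, 146, 65.2 and -244, the last at its promoter. Tspan5, Usp18 and Frmd4a had 2 regions of the other sign, and Sfmbt2 held 3 of each sign, 46.5, -84.8, 37.6, 60.4, -54.3 and -56.6. Runs that overlapped no protein-coding gene were also mostly mixed. That near Usp12, 46.4 kb from the gene, had 296 followed by -212, -21.6, -31.5 and -73.5. Those near Fam53a, Tmem132d, Cnih3 and Atp23 had 1 positive among 4 negative regions, those near Cops8 and Spsb1 had 1 negative among 4 positive, and those near Ywhaz and Rnf144b had 2 against 3.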

How the data were processed

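The labels give 1 library of PDGFRα+ and 1 library of CD137+ progenitors, and the deposited list holds positions and a signed score per region, made by the authors. The submitters' processing notes name mm10 as the build. For aligner, region caller, thresholds and coverage, the answer is not given in the sources used here, and depth is unknown. The score was used to describe and rank regions. Read as BED, 251 of 251 first bases and 289 of 289 last bases that fell in RefSeq promoter windows belonged to a CG, and positions are printed counting from 1. Chaining (Python 3.11.15, pandas 2.3.3, scipy 1.17.1) missed 0 planted runs in simulated regions. A run overlaps a gene of the RefSeq table (GRCm38.p6) when their spans share a base; the table gives no strand or exons. A planned check of CG content is void, because 50 of 72 genes at runs (69.4%) had a promoter window. Runs and genes were to be named by run size, summed score, density, span, change of sign, gene lists and the study's genes, and the text names the runs, except 1 that is not reported here. No test was run. The members and gene lists were chosen with earlier results of these data known. Alternatives were another gap, run length, width limit, score minimum, gene overlap and definition of 1 sign, and runs ended by wide regions.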

Additional observations from a re-analysis of the deposited data

Results flagged for a closer look

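The rule was limited to chromosomes 1 to 19, and the X chromosome was outside it. Under the same rule the 541 narrow regions of X held 1 run of 7 regions. On the autosomes 495 of 32708 narrow regions, or 1.51%, were in runs. The 7 regions on X are 1 run at 1 place and not 7 separate counts. All 7 regions were positive. The 15 narrow regions of chromosome Y held no run.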

How the results depend on the processing

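Of 60 values recomputed under other settings 34 stayed within 1.5 times (counts) or within the 95% interval (shares), and 26 moved further. The number of runs was 78 with 495 members, against 24 and 152 with gaps under 2 kb, 210 and 1326 with gaps under 10 kb, 217 and 1051 with at least 4 regions, 14 and 141 with at least 8, and 38 and 232 with absolute scores of 40 or more. With widths under 300 bp there were 329 members. Runs of 1 sign made up 60.3%, against 87.5% (2 kb), 39.5% (10 kb) and 78.6% (at least 8). Neighbours agreed in sign in 88.2%, against 95.3% (2 kb), 80.3% (10 kb), 84.5% (at least 4) and 97.6% (at least 8). Members were negative in 56.4%, against 61.6% (10 kb), 60.8% (at least 4) and 63.8% (at least 8). Runs overlapped a list gene in 42.3%, against 25.2% (10 kb), 25.8% (at least 4), 85.7% (at least 8) and 57.9% (scores of 40 or more). With at least 5 members required in 1 gene, 55.1% of runs counted as lying at a protein-coding gene, against 80.8%. Shorter gaps select closer neighbours and also leave fewer runs. The cause of the shifts was not tested. No paired analysis was possible because there is 1 library per group. The unknown depth limits every value, and at a stretch without a run, equal methylation and too few reads cannot be told apart.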

Other observations

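Narrow regions outside the runs were counted around runs of either main sign. Over all 32213 narrow autosomal regions outside runs 67.3% were negative. At 5 to 10 kb from a mainly positive run 2 of 14 regions were negative (14.3%, 4.01 to 39.9), and at 5 to 10 kb from a mainly negative run 18 of 24 were (75.0%, 55.1 to 88.0). At 10 to 20 kb 17 of 34 regions around positive runs were negative, and 38 of 47 around negative runs (80.9%). At 20 to 50 kb the shares were 44.2% of 43 regions around positive runs and 72.0% of 118 around negative runs. At 50 to 100 kb they were 38.3% of 81 and 66.8% of 184, and at 100 to 500 kb they were 58.7% (54.2 to 63.0) of 477 and 71.6% (68.5 to 74.4) of 897. Runs near each other share some of these regions, and no test was run.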
